A study of Mus musculus with 18 samples.

Results

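The genes described here are 42 genes of the unfolded protein response (UPR) and the integrated stress response (ISR). Membership rests on the gene name and uses no threshold on a measured value. Of the 42 names, 41 were found in the count table of 54532 genes, and all 41 were among the 14317 genes that passed the filter on low counts. *Vldlros* was not found under that name and is not analysed here. By role, the members comprised 14 ER chaperones and folding enzymes, 4 genes for the ER stress sensors and XBP1, 3 genes of ER-associated degradation (ERAD), 7 ISR transcription factors and feedback genes, and 13 targets of ATF4 in amino acid metabolism and transport.

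Counts came from 18 libraries of 10T1/2 cells (CH310T1/2 in the labels), a mouse line of multipotent fibroblasts, in 6 groups of 3. WT cells and the single-cell-derived FOXS1 KO clones 1 and 2, made with CRISPR guides against *Foxs1* and puromycin selection, were each harvested uninduced and stimulated. Per the labels, cells were grown to 2 days after confluence, and stimulated cells were then kept for 12 h with TGF-β1 at 1 nM and after that for 48 h with DMII, a mix of insulin, indomethacin, dexamethasone and 3-isobutyl-1-methylxanthine. The methods also describe overnight serum starvation of 10T1/2 cells ahead of TGF-β1, without saying whether these libraries had it. DMII was given in a different base medium from the growth medium, and the medium of uninduced cells at harvest is not given in the sources used here, so the effects of medium, serum and treatment cannot be told apart. WT cells are not described as taken through the single-cell step, and each KO genotype is 1 clone. The labels do not say that the 3 libraries of a group came from separate cultures, so p-values measure only the spread between these libraries.

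When unfolded proteins accumulate in the endoplasmic reticulum (ER), the sensors IRE1α (*Ern1*), ATF6 and PERK (*Eif2ak3*) start the UPR. IRE1α splices the mRNA of XBP1, and XBP1 and ATF6 raise the genes of ER chaperones. PERK phosphorylates the initiation factor eIF2α, a step it shares with kinases that sense amino acid shortage, heme loss or viral RNA, and this ISR lowers general translation while it raises that of ATF4, an activator of genes for amino acid synthesis and uptake. The chaperone arm and the ATF4 arm can therefore move separately, and mRNA levels report neither XBP1 splicing nor eIF2α phosphorylation.

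Library totals ran from 15576685 to 42005596 counts (median 20178953.5), and the members held 0.639% to 0.839% of them. Levels between libraries are given as CPM, counts scaled to the library size with TMM factors, and levels between genes as FPKM, from the gene lengths deposited with the counts. Differentially expressed genes (DEGs) passed 0.05 in the quasi-likelihood test of edgeR, its p adjusted over all 14317 genes by the Benjamini-Hochberg method, with a log2 fold change beyond 1 in either direction. The verbs rose and fell are used only for DEGs. Replicates correlated across genes with r of 0.963 to 0.993, and the lowest values belonged to uninduced WT replicate 1. *Foxs1* mRNA was 2.23 ± 0.886 CPM in uninduced and 2.51 ± 0.641 CPM in stimulated WT cells (SD, n = 3), against 25.7 ± 2.04 and 54.5 ± 2.06 CPM in the libraries labelled clone 1 and 22.6 ± 1.44 and 39.9 ± 2.59 CPM in those labelled clone 2. A count over the whole gene does not show whether its coding part was disrupted, so these counts do not check the genotype labels. The clones were checked in the study by genomic DNA sequencing and western blot, which are not analysed here. The 8 fibroblast markers summed to 39938 to 104095 CPM in a library. The 5 adipocyte markers summed to 30.5 to 43.0 CPM in stimulated clone 1, where 3 of 5 averaged 1 CPM or more and *Lep* was at 0, and to at most 4.64 CPM in every other library, and those of macrophages, endothelial and epithelial cells reached at most 7.92 CPM. In bulk RNA, fewer cells that use a gene and less of its RNA in each cell cannot be told apart.

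Promoter sequences were compared by role. Promoter windows from RefSeq (assembly GRCm38.p6, 250 bases before to 50 bases after the start) were given for 35 of the 41 members, and were searched on both strands for the elements described for both arms. The ER stress response element (ERSE, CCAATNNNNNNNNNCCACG), through which ATF6 acts, was in 0.119% of the 32851 windows of all genes, and its variant ERSE-II (ATTGG, any 1 base, then CCACG) in 0.0365%. One or the other was found in 8 of the 12 chaperone windows and in that of *Herpud1*, and in no window of the sensors, the ISR genes or the ATF4 targets. The stretches below show the elements of *Hspa5*, *Calr*, *Dnajc3*, *Dnajb11* and *Herpud1* as examples of both forms of the element. Each is printed on the strand of the gene with 9 flanking bases, and capitals mark the fixed letters, which for *Calr* lie on the opposite strand and appear as their complement.
*Hspa5* ERSE, chr2:34772016-34772052 (+), starting 65 bases before the gene start: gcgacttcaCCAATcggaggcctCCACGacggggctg
*Calr* ERSE, chr8:84847066-84847102 (-), 162 bases before: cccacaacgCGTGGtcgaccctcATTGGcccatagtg
*Dnajc3* ERSE, chr14:118937818-118937854 (+), 105 bases before: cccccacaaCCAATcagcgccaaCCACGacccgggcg
*Dnajb11* ERSE-II, chr16:22857843-22857871 (+), 7 bases after: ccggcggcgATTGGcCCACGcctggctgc
*Herpud1* ERSE-II, chr8:94386368-94386396 (+), 52 bases before: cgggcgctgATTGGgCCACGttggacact

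The amino acid response element, bound by ATF4 with a C/EBP partner, was searched as the core TGATGNAAT, which was in 0.965% of all windows and in none of the members'. A shorter form that lies within it, TGATGNAA, was added after that result had been seen. It was in 3.97% of all windows and in those of 6 members, the ISR genes *Atf3*, *Trib3* and *Chac1*, the amino acid genes *Asns* and *Pck2*, and *Herpud1*. The UPR element core TGACGTGG was in 0.676% of all windows and in none of the members'. *Dnajb9*, *Xbp1* and *Atf4* held none of these strings in their windows. Neither did *Ddit3*, *Mthfd2*, *Shmt2* and *Phgdh*, which also changed in the results below. The stretches of *Asns*, *Trib3* and *Chac1* are shown only as examples of the shorter form, again with capitals for the fixed letters.
*Asns*, chr6:7693216-7693241 (-), 23 bases before the gene start: ccagccacaTGATGaAActtcccgca
*Trib3*, chr2:152344030-152344055 (-), 14 bases after, opposite strand: agctcaggtTTaCATCAgccgggcgg
*Chac1*, chr2:119351040-119351065 (+), 193 bases before, opposite strand: tccctgccgTTgCATCActcctgcca
The 250 bases before the start are given for 1 gene of each arm, *Hspa5* (chr2:34771840-34772089, +) and *Asns* (chr6:7693210-7693459, -), to show the surroundings of these elements.
*Hspa5*: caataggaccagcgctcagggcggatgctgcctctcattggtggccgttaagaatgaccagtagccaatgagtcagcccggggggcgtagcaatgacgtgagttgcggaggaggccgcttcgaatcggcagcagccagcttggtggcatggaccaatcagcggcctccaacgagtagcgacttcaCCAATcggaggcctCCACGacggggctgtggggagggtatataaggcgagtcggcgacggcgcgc
*Asns*: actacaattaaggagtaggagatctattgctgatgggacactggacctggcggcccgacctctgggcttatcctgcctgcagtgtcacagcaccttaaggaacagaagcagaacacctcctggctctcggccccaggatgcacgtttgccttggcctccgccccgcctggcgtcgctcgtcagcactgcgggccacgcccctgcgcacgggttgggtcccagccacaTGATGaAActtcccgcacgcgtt
A match is a description of the letters only, and binding was not measured.

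**Figure D1:**
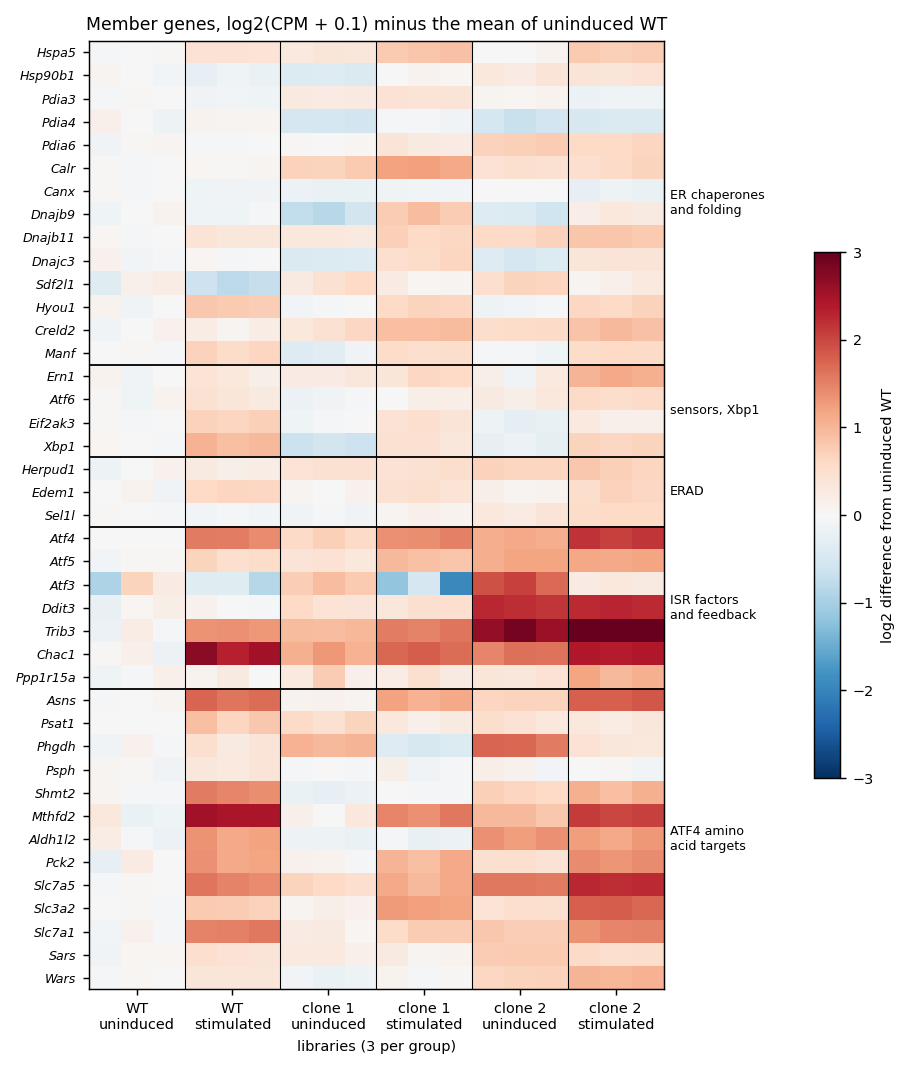
Level of the 41 members in the 18 libraries as log2(CPM + 0.1) minus the mean of the 3 uninduced WT libraries, with genes ordered by role and colours that saturate at a difference of 3. The ATF4 targets and the ISR genes *Atf4*, *Trib3* and *Chac1* are red in stimulated WT cells and most of the ISR genes are red in uninduced clone 2, while the chaperones stay near white in stimulated WT cells.

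The first comparison asked how WT cells responded to TGF-β1 + DMII. In WT cells, genes of the ATF4 arm rose. Of the 14 ER chaperones 0 rose, which beside a background of 6.25% says little on its own. Of 41 members, 10 rose (background among all genes 6.25%) and 0 fell (background 13.6%). The 10 were *Atf4*, *Trib3* and *Chac1* from the ISR list and *Asns*, *Shmt2*, *Mthfd2*, *Aldh1l2*, *Pck2*, *Slc7a5* and *Slc7a1* from the ATF4 targets. The median log2 fold change was 1.22 over the 13 ATF4 targets, 0.57 over the 7 ISR genes and 0.03 over the 14 chaperones, beside -0.04 over all genes tested. Here and below, each count of 0 from edgeR over the members was also 0 with DESeq2, and the number of members on that side at an unadjusted p under 0.05 was 4 in this case. By adjusted p alone, without the fold threshold, all 13 ATF4 targets were higher (background 28.8%), while 4 chaperones were higher and 4 lower (background for lower 31.9%), the same numbers as at an unadjusted p under 0.05. Summed over their lists, the ATF4 targets went from 1060 ± 28.9 to 2134 ± 95.0 CPM, the ISR genes from 270 ± 11.5 to 568 ± 25.2 CPM, and the chaperones from 4013 ± 33.4 to 4200 ± 6.97 CPM (SD, n = 3).

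*Atf4*, the transcription factor at the centre of the ISR, was at 103, 105 and 105 CPM in the uninduced WT libraries and at 306, 301 and 280 CPM in the stimulated ones. The groups did not overlap, and the log2 fold change was 1.50 ± 0.051 (SE; edgeR adjusted p = 6.37e-21). *Chac1*, which encodes an enzyme that degrades glutathione, went from 8.27, 8.86 and 7.05 to 53.1, 40.7 and 46.2 CPM, a log2 fold change of 2.54 ± 0.11 (edgeR adjusted p = 1.65e-18). That was the largest change among the members in WT cells. *Trib3*, a pseudokinase that feeds back on ATF4, went from 10.0, 13.3 and 10.8 to 29.0, 29.4 and 27.8 CPM (log2 fold change 1.34 ± 0.091, edgeR adjusted p = 1.06e-13). All stimulated libraries were above all uninduced ones for these 3 genes.

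The other ISR genes were not DEGs in WT cells. *Ddit3*, which encodes CHOP, the factor tied to death under lasting ER stress, was at 15.0, 18.4 and 19.8 CPM uninduced and at 19.3, 17.6 and 17.3 CPM stimulated. These libraries overlapped, with a log2 fold change of 0.02 ± 0.091 (edgeR adjusted p = 0.884). *Atf5*, a relative of ATF4, had a log2 fold change of 0.57 ± 0.052, *Ppp1r15a*, the phosphatase subunit that reverses eIF2α phosphorylation, one of 0.12 ± 0.12, and *Atf3*, an early stress factor at 0.466 to 1.63 CPM in these libraries, one of -0.75 ± 0.42.

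Among the ATF4 targets, the largest WT change was that of *Mthfd2*, a mitochondrial folate enzyme, and 2 further enzymes of that pathway rose. *Mthfd2* went from 24.0, 16.8 and 17.5 to 111, 105 and 105 CPM (log2 fold change 2.47 ± 0.097, edgeR adjusted p = 2.08e-18). *Shmt2*, which makes glycine from serine in mitochondria, went from 82.5, 74.3 and 75.3 to 227, 215 and 203 CPM (1.48 ± 0.058, edgeR adjusted p = 2.19e-19). *Aldh1l2*, another mitochondrial folate enzyme, went from 61.3, 50.5 and 46.1 to 134, 114 and 122 CPM (1.23 ± 0.077, edgeR adjusted p = 6.39e-14). For each of the 3 enzymes every stimulated library lay above every uninduced one. A share of 14.1% of the exonic bases of *Aldh1l2* lies under exons of another gene, and the counting rule for shared bases is not given in the sources used here.

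Asparagine synthetase, *Asns*, was at 57.0, 58.9 and 62.5 CPM uninduced and at 198, 182 and 189 CPM stimulated (log2 fold change 1.67 ± 0.053, edgeR adjusted p = 1.09e-21). *Slc7a5*, the light chain of the LAT1 transporter for large neutral amino acids, went from 65.5, 68.5 and 67.2 to 204, 190 and 181 CPM (1.51 ± 0.055, edgeR adjusted p = 3.74e-20), and *Slc7a1*, a transporter of cationic amino acids, from 28.5, 33.1 and 29.8 to 85.7, 87.6 and 91.5 CPM (1.53 ± 0.072, edgeR adjusted p = 1.96e-17). *Pck2*, the mitochondrial PEP carboxykinase, rose with a log2 fold change of 1.22 ± 0.091. The serine synthesis enzymes did not reach the fold threshold. *Psat1* was at 136, 139 and 137 CPM uninduced and at 255, 215 and 240 CPM stimulated (0.78 ± 0.062), and log2 fold changes were 0.38 ± 0.061 for *Phgdh* and 0.34 ± 0.090 for *Psph*. *Slc3a2*, the heavy chain that pairs with LAT1, had one of 0.75 ± 0.045, and the tRNA synthetases *Sars* and *Wars* had 0.44 ± 0.054 and 0.36 ± 0.060.

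Some of the chaperones were the most abundant members. Per length, *Calr*, which encodes the calcium-binding lectin calreticulin, had the highest mean of any member in uninduced WT cells at 274 FPKM, followed by *Pdia3*, a disulfide isomerase, at 217 FPKM, *Hsp90b1* (GRP94) at 135 FPKM and *Hspa5* at 116 FPKM, against 44.2 FPKM for *Atf4* and 21.7 FPKM for *Asns*. *Hspa5*, which encodes BiP, the main ER chaperone and a standard UPR readout, was at 472, 497 and 507 CPM uninduced and at 665, 660 and 651 CPM stimulated. These groups did not overlap, but the log2 fold change of 0.42 ± 0.041 (edgeR adjusted p = 3.04e-10) was under the fold threshold. The ends of the WT range were *Hyou1*, an ER chaperone of the HSP110 type, at 0.77 ± 0.052 and *Sdf2l1*, a chaperone cofactor, at -0.73 ± 0.12, and *Manf*, a secreted ER stress protein, was at 0.63 ± 0.060. *Dnajb9* (ERdj4), a cochaperone and XBP1 target, was at 46.8, 51.6 and 54.7 CPM uninduced and at 46.3, 46.5 and 49.4 CPM stimulated, which overlapped.

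Total *Xbp1* mRNA was at 71.3, 68.3 and 67.0 CPM in uninduced and at 142, 129 and 136 CPM in stimulated WT cells. The log2 fold change of 0.98 ± 0.055 did not quite reach the fold threshold. Of the sensors, *Eif2ak3* had 0.69 ± 0.074, *Atf6* 0.36 ± 0.071 and *Ern1* 0.31 ± 0.093. In ERAD, *Edem1*, which takes misfolded glycoproteins out of folding, had 0.62 ± 0.057, *Herpud1*, a scaffold of the degradation complex, 0.22 ± 0.063, and *Sel1l*, its adaptor, -0.07 ± 0.044.

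**Figure D2:**
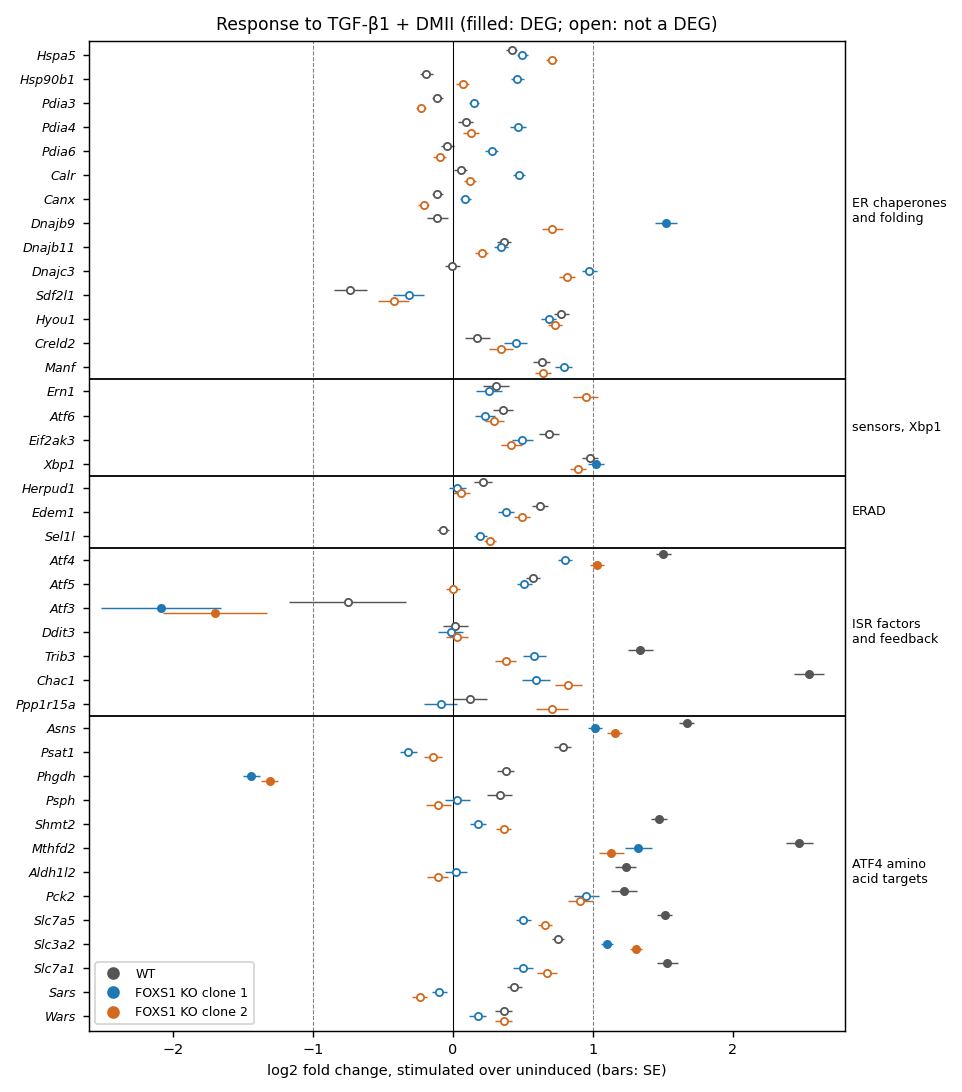
Log2 fold change of each member from uninduced to stimulated cells in WT, clone 1 and clone 2, with bars for the SE and dashed lines at 1 and -1. Filled points are DEGs. In the ATF4 target block most WT points lie to the right of the clone points, and in the chaperone block the clone 1 points lie at or to the right of the WT points for most genes.

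The next comparison asked how each clone responded to the same stimulation. Of the 13 ATF4 targets, 7 in clone 1 (background 3.46%) and 4 in clone 2 (background 2.96%) had a lower log2 fold change than in WT cells, by more than the fold threshold. Among the chaperones, *Dnajb9* had a higher one in clone 1 (background 5.34%). In clone 1, 5 of 41 members rose (background 5.95%), namely *Dnajb9*, *Xbp1*, *Asns*, *Mthfd2* and *Slc3a2*, and 2 fell (background 10.7%), *Atf3* and *Phgdh*. In clone 2, 4 rose (background 6.46%), *Atf4*, *Asns*, *Mthfd2* and *Slc3a2*, and 2 fell (background 11.2%), again *Atf3* and *Phgdh*. The median log2 fold change of the 13 ATF4 targets was 0.18 in clone 1 and 0.36 in clone 2, that of the 14 chaperones was 0.46 and 0.17, and all genes tested had -0.02 in each clone. By adjusted p alone, 12 chaperones were higher and 1 lower in clone 1 (backgrounds 25.9% and 28.6%), and 9 were higher and 3 lower in clone 2 (backgrounds 26.7% and 29.1%).

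*Dnajb9* showed the largest change of any chaperone. It was at 30.4, 28.6 and 34.5 CPM in uninduced and at 86.3, 96.1 and 86.3 CPM in stimulated clone 1, a log2 fold change of 1.52 ± 0.077 (edgeR adjusted p = 1.28e-16). In clone 2 it went from 39.0, 38.3 and 33.6 to 58.2, 63.0 and 61.2 CPM (0.71 ± 0.076). The uninduced libraries of both clones were below all uninduced WT libraries and the stimulated ones above all stimulated WT libraries. *Dnajc3*, which encodes the PERK inhibitor P58IPK, had 0.97 ± 0.054 in clone 1 and 0.82 ± 0.054 in clone 2, where WT cells had -0.0028 ± 0.054. *Hspa5* went from 603, 631 and 625 to 853, 869 and 901 CPM in clone 1 (0.50 ± 0.041) and from 500, 498 and 529 to 843, 814 and 833 CPM in clone 2 (0.71 ± 0.041). *Xbp1* went from 44.1, 46.8 and 44.6 to 93.8, 94.2 and 86.5 CPM in clone 1 (1.02 ± 0.057, edgeR adjusted p = 1.55e-15), and its response was close in size in clone 2 (0.89 ± 0.056).

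*Phgdh*, which encodes the first enzyme of serine synthesis, fell in both clones. It was at 175, 165 and 170 CPM in uninduced and at 64.4, 60.8 and 63.2 CPM in stimulated clone 1 (log2 fold change -1.44 ± 0.062, edgeR adjusted p = 2.33e-18). In clone 2 it went from 282, 279 and 250 to 114, 108 and 106 CPM (-1.31 ± 0.060, edgeR adjusted p = 1.19e-17), while the WT libraries went from 79.2, 92.5 and 82.7 to 118, 102 and 110 CPM. The stimulated libraries lay below all uninduced ones in both clones and above them in WT. The annotation holds 8 genes or pseudogenes of nearly the same sequence as *Phgdh*, so its counts are uncertain where reads could be assigned to either. *Atf3* also fell, from 1.69, 1.93 and 1.76 to 0.373, 0.664 and 0.182 CPM in clone 1 (-2.08 ± 0.43) and from 3.95, 4.38 and 3.42 to 1.18, 1.24 and 1.20 CPM in clone 2 (-1.70 ± 0.37), at low levels. *Slc3a2* rose in both clones, from 242, 257 and 250 to 555, 537 and 515 CPM in clone 1 (1.10 ± 0.045) and from 301, 323 and 320 to 790, 796 and 751 CPM in clone 2 (1.31 ± 0.045).

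The difference between the response of a clone and that of WT was tested as an interaction. In clone 1, the difference from WT was negative for 8 members (background 3.46%) and positive for 1 (background 5.34%). A negative difference is not always a smaller response, as *Phgdh* fell in both clones and had a log2 fold change of 0.38 in WT. The 8 were *Chac1* and the ATF4 targets *Psat1*, *Phgdh*, *Shmt2*, *Mthfd2*, *Aldh1l2*, *Slc7a5* and *Slc7a1*, and the 1 was *Dnajb9*. In clone 2, the difference was negative for 5 members (background 2.96%), *Chac1*, *Phgdh*, *Shmt2*, *Mthfd2* and *Aldh1l2*. It was positive for 0 (background 4.89%, 8 at an unadjusted p under 0.05). Both differences use the same 6 WT libraries, so a deviation of those libraries enters both. The median difference over the 13 ATF4 targets was -1.01 in clone 1 and -0.85 in clone 2, over the 14 chaperones 0.30 and 0.05, and over all genes -0.01 in each.

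The values behind these differences were as follows. *Chac1* went from 16.9, 20.1 and 16.7 to 26.5, 28.4 and 26.0 CPM in clone 1 and from 22.4, 25.3 and 24.9 to 43.1, 41.7 and 43.2 CPM in clone 2, with differences from the WT response of -1.95 ± 0.15 and -1.72 ± 0.15 (edgeR adjusted p = 5.88e-12 and 7.09e-11). Its uninduced clone libraries were all above, and its stimulated clone 1 libraries all below, those of WT. *Shmt2* went from 67.7, 64.8 and 68.4 to 78.3, 74.9 and 74.5 CPM in clone 1 (difference -1.30 ± 0.082) and from 127, 120 and 118 to 163, 144 and 163 CPM in clone 2 (-1.11 ± 0.080). *Aldh1l2* was at 46.8, 47.3 and 45.3 CPM in uninduced and 50.5, 45.1 and 46.1 CPM in stimulated clone 1 (difference -1.21 ± 0.11), and at 136, 126 and 136 CPM in uninduced and 125, 116 and 128 CPM in stimulated clone 2 (-1.34 ± 0.11). The 2 groups of each clone overlapped for *Aldh1l2*, at a low level in clone 1 and at the level of stimulated WT cells in clone 2.

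*Mthfd2* rose in each genotype but from 21.4, 19.0 and 23.8 to 53.3, 49.7 and 57.9 CPM in clone 1 and from 37.6, 37.6 and 33.9 to 82.8, 77.1 and 79.7 CPM in clone 2, which is less than in WT (differences -1.15 ± 0.14 and -1.34 ± 0.13). *Asns* also rose in each genotype, from 64.2, 65.1 and 63.4 to 136, 123 and 131 CPM in clone 1 and from 92.3, 95.3 and 94.6 to 205, 205 and 217 CPM in clone 2. Its differences of -0.66 ± 0.074 and -0.52 ± 0.073 were under the fold threshold. *Atf4* had differences of -0.70 ± 0.071 and -0.48 ± 0.070 and *Trib3* of -0.76 ± 0.12 and -0.96 ± 0.12, also under it. *Slc3a2* was an exception among the ATF4 targets, with a larger response in the clones (0.35 ± 0.063 and 0.56 ± 0.063), which did not reach the threshold either. The responses of the 2 clones were not tested against each other.

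**Figure D3:**
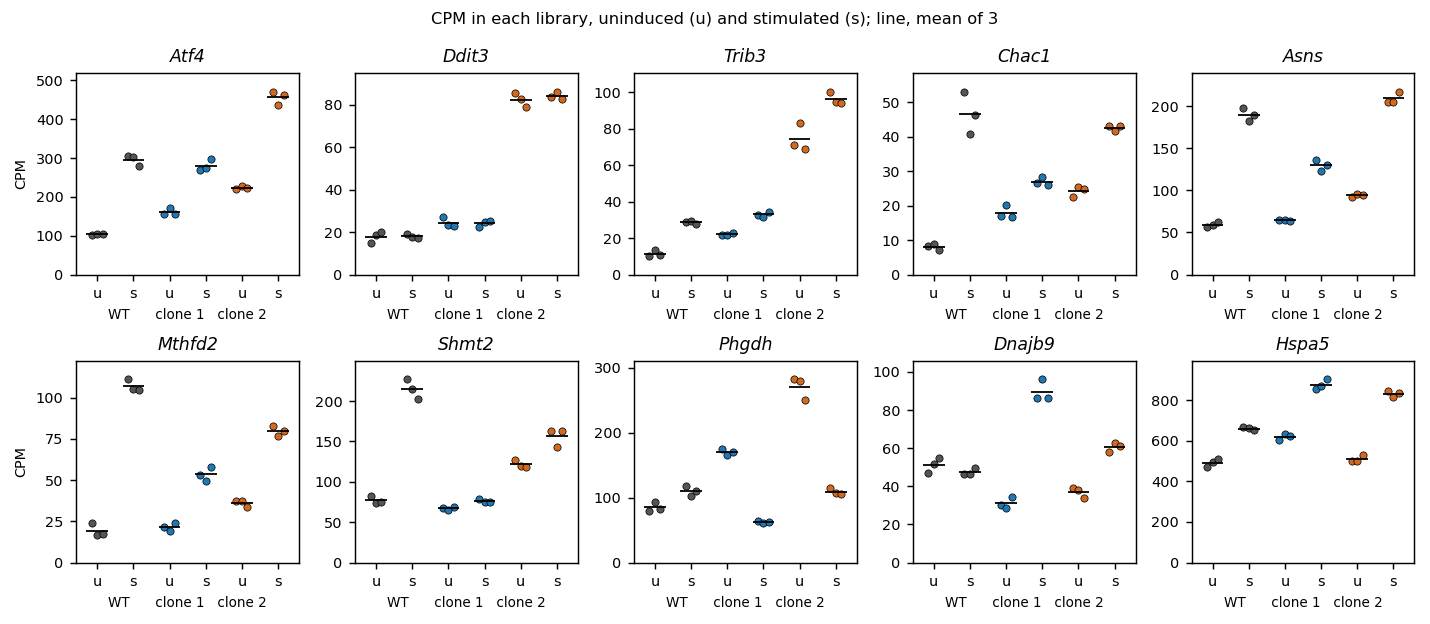
CPM of 10 members in each library, uninduced (u) and stimulated (s), with a line at the mean of 3 libraries and an axis that starts at 0 for each gene. *Ddit3* and *Trib3* are highest in clone 2 in both states, *Phgdh* is lower in the stimulated than in the uninduced libraries of both clones, and *Mthfd2* and *Shmt2* are highest in stimulated WT cells.

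Before stimulation the ISR genes already differed between the genotypes, and most so in clone 2. In uninduced clone 2, 9 members were higher than in WT (background 5.54%) and 0 lower (background 9.56%, 5 at an unadjusted p under 0.05). These were 6 of the 7 ISR genes (*Atf4*, *Atf5*, *Atf3*, *Ddit3*, *Trib3* and *Chac1*) and the ATF4 targets *Phgdh*, *Aldh1l2* and *Slc7a5*. The median log2 fold change was 1.59 over the ISR genes, 0.66 over the ATF4 targets and 0.06 over the chaperones, beside -0.02 over all genes. In uninduced clone 1, 2 members were higher than in WT (background 6.32%), *Chac1* (1.16 ± 0.11) and *Phgdh* (1.00 ± 0.061), and 0 lower (background 8.73%, 10 at an unadjusted p under 0.05), with medians of 0.62 over the ISR genes and 0.13 over the ATF4 targets. *Phgdh* stood at the fold threshold, and the count of 2 became 1 without uninduced WT replicate 1 or 3 or uninduced clone 1 replicate 1, and 4 without uninduced WT replicate 2. These comparisons share their WT libraries.

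*Ddit3* was at 85.3, 82.4 and 78.7 CPM in uninduced clone 2 against 15.0, 18.4 and 19.8 CPM in uninduced WT cells, a log2 fold change of 2.20 ± 0.085 (edgeR adjusted p = 2.85e-19). Clone 1 libraries lay between them, at 26.9, 23.5 and 22.9 CPM (0.45 ± 0.090). Uninduced and stimulated libraries overlapped for *Ddit3* in every genotype, and stimulated clone 2 was at 83.3, 86.1 and 82.8 CPM. Of the exonic bases of *Ddit3*, 10.9% lie under exons of other genes, among them *Mars*, and the strand setting of the counts is not given in the sources used here. *Trib3* was at 71.2, 83.0 and 68.9 CPM in uninduced clone 2 and at 21.9, 21.6 and 22.6 CPM in uninduced clone 1 (2.71 ± 0.088 and 0.96 ± 0.093 against WT), which puts all libraries of clone 2 above those of clone 1, and those above WT. *Atf4* was at 220, 229 and 222 CPM in uninduced clone 2 (1.10 ± 0.051, edgeR adjusted p = 1.96e-17) and at 155, 170 and 156 CPM in uninduced clone 1 (0.62 ± 0.051).

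*Atf5* was at 209, 220 and 222 CPM in uninduced clone 2, against 92.7, 100 and 99.1 CPM in uninduced WT cells (1.15 ± 0.051, edgeR adjusted p = 8.66e-18), and its uninduced and stimulated libraries overlapped there (log2 fold change 0.0016 ± 0.050). *Slc7a5* was at 200, 200 and 198 CPM in uninduced clone 2, a level within the 181 to 204 CPM of stimulated WT cells (1.57 ± 0.055 against uninduced WT, edgeR adjusted p = 2.57e-20). Uninduced *Aldh1l2* in clone 2 likewise lay at the level of stimulated WT cells (1.34 ± 0.077 against uninduced WT). *Slc7a1* was at 53.4, 51.1 and 51.1 CPM in uninduced clone 2 (0.77 ± 0.073) and at 36.0, 36.5 and 31.9 CPM in uninduced clone 1 (0.19 ± 0.075), both under the threshold. *Psat1* was at 198, 187 and 172 CPM in uninduced clone 2 and at 205, 188 and 217 CPM in uninduced clone 1, above all uninduced WT libraries without reaching the threshold.

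No chaperone was a DEG in either uninduced clone by edgeR or DESeq2. Over all genes 6.32% were higher and 8.73% lower in clone 1, and 5.54% and 9.56% in clone 2. By adjusted p alone, 6 were higher and 6 lower in clone 1 (backgrounds 26.3% and 27.2%) and 6 higher and 3 lower in clone 2 (backgrounds 26.3% and 26.9%), the same numbers as at an unadjusted p under 0.05. Their log2 fold changes against WT ran from -0.71 (*Dnajb9*) to 0.72 (*Calr*) in clone 1 and from -0.59 (*Pdia4*, a disulfide isomerase) to 0.71 (*Pdia6*, another) in clone 2. Summed over the list, the chaperones were at 4493 ± 69.1 CPM in uninduced clone 1 and 4603 ± 63.7 CPM in uninduced clone 2 (SD, n = 3). The corresponding sums were 1288 ± 15.1 and 1877 ± 32.8 CPM for the ATF4 targets and 394 ± 23.2 and 664 ± 15.9 CPM for the ISR genes.

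After stimulation few members differed from WT beyond the threshold, and their share was under the background in each clone and direction. In stimulated clone 1, 1 member was higher than in WT (background 9.42%), *Calr*, and 2 were lower (background 9.60%), *Shmt2* and *Aldh1l2*. *Calr* was at 1830, 1835 and 1739 CPM in stimulated clone 1 against 818, 805 and 834 CPM in stimulated WT cells (1.14 ± 0.043, edgeR adjusted p = 1.23e-19), and was the most abundant member there at 625 FPKM. *Shmt2* and *Aldh1l2* were lower with log2 fold changes of -1.50 ± 0.058 and -1.39 ± 0.077, and *Mthfd2*, at -0.998 ± 0.088, did not quite reach the threshold. The medians over the ATF4 targets and the chaperones were -0.54 and 0.37, beside -0.02 over all genes. The sum of the ATF4 targets was 1667 ± 58.0 CPM in stimulated clone 1, under the 2134 ± 95.0 CPM of stimulated WT cells, and that of the chaperones was 5945 ± 45.6 CPM against 4200 ± 6.97 CPM. Stimulated clone 1 is also the group with the raised adipocyte markers given above, and their part in these values was not tested.

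In stimulated clone 2, 3 members were higher than in WT (background 7.95%), *Ddit3* (2.22 ± 0.086), *Trib3* (1.75 ± 0.080) and *Slc3a2* (1.02 ± 0.045), and 0 were lower (background 8.94%, 9 at an unadjusted p under 0.05). *Trib3* reached 101, 94.6 and 94.5 CPM there. The median over the ATF4 targets was -0.0036 and that over the chaperones 0.37, and the lists summed to 2574 ± 37.2 CPM for the ATF4 targets, 962 ± 27.4 CPM for the ISR genes and 5101 ± 111 CPM for the chaperones. *Atf4* was at 471, 435 and 463 CPM in stimulated clone 2 (0.63 ± 0.049 against WT), and in stimulated clone 1, at 269, 275 and 297 CPM, it overlapped with WT (-0.08 ± 0.049).

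**Figure D4:**
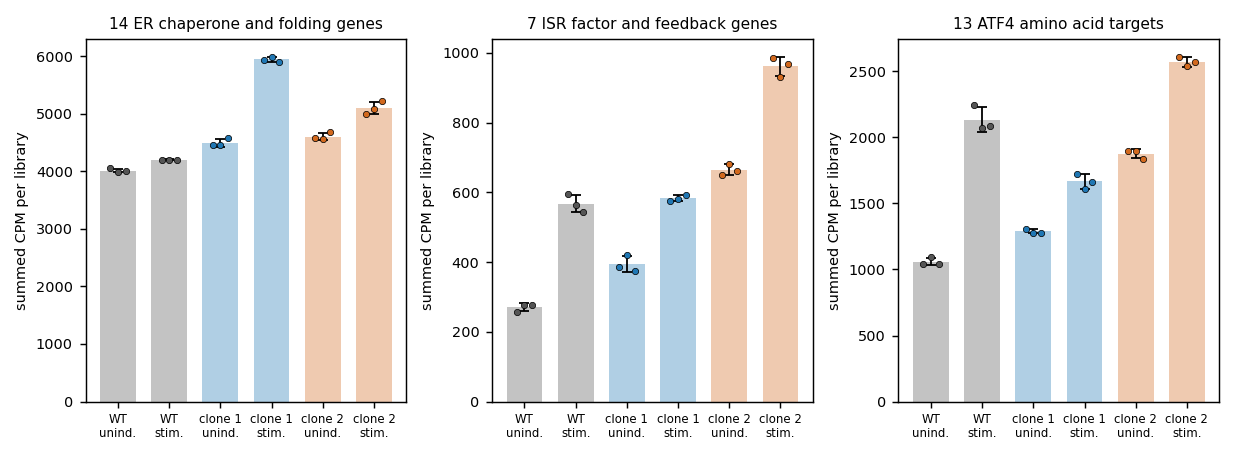
Summed CPM of 3 lists in each library, with bars for the mean of 3 libraries, error bars for the SD and points for libraries. The chaperone sum is highest in stimulated clone 1, the ISR and ATF4 target sums are highest in stimulated clone 2, and in WT cells the ISR and ATF4 target sums of stimulated libraries lie well above the uninduced ones while the chaperone sums lie close together. A sum is dominated by its most abundant genes.

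In a direct comparison of clone 1 with clone 2, the members that were DEGs were lower in clone 1. In uninduced cells, 4 members were lower in clone 1 (background 3.78%), *Ddit3* (-1.75 ± 0.083), *Trib3* (-1.75 ± 0.082), *Aldh1l2* (-1.51 ± 0.078) and *Atf3* (-1.13 ± 0.35), and 0 were higher (background 4.89%, 5 at an unadjusted p under 0.05). In stimulated cells, 6 were lower (background 4.48%), these 4 with *Slc7a5* (-1.15 ± 0.053) and *Shmt2* (-1.04 ± 0.058), and 0 were higher (background 5.50%, 7 at an unadjusted p under 0.05). *Slc7a5* was at 147, 132 and 148 CPM in stimulated clone 1 and at 321, 310 and 315 CPM in stimulated clone 2, and the groups were far apart. Over the chaperones the median was -0.12 in uninduced and 0.05 in stimulated cells.

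**Figure D5:**
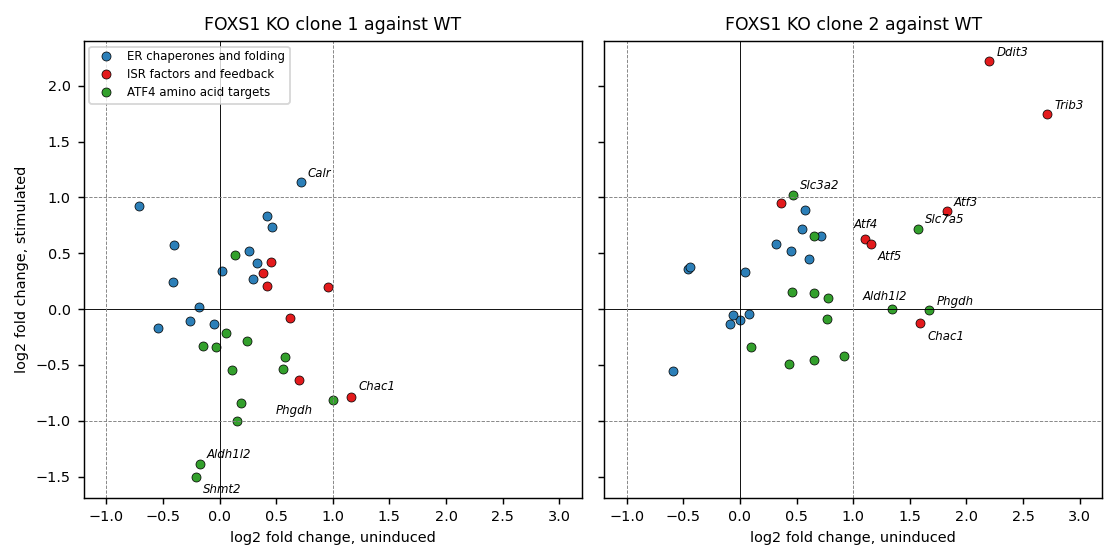
Log2 fold change of clone 1 (left) and clone 2 (right) against WT in uninduced cells (x) and stimulated cells (y) for the chaperones, ISR genes and ATF4 targets, with dashed lines at 1 and -1 and names for members that were DEGs in either state. *Ddit3* and *Trib3* of clone 2 stand apart at the upper right, and most ATF4 targets of clone 1 lie below 0 on the y axis. The WT libraries are shared by both panels.

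Differences of the clones from WT also varied between chromosomes, in a description chosen after the values were seen. Over the 518 genes of chromosome 10 that averaged 5 CPM or more, the median log2 fold change of clone 1 against WT was -0.41 in uninduced and -0.43 in stimulated cells, and 0.07 and 0.05 in clone 2. *Shmt2*, *Aldh1l2*, *Ddit3* and *Hsp90b1* lie on this chromosome, and they did not move alike in clone 1. Their uninduced and stimulated log2 fold changes there were -0.21 and -1.50 for *Shmt2* and -0.17 and -1.39 for *Aldh1l2*. *Ddit3* had 0.45 and 0.42, and *Hsp90b1* had -0.41 and 0.24. Within 1 Mb of *Shmt2*, the 59 neighbours had a median of -0.60 in stimulated clone 1, and 56 of them lay above *Shmt2* itself. For *Aldh1l2* the 20 neighbours had a median of -0.71, with 17 above it. For *Ddit3* the 45 neighbours had -0.74, with 2 above it, and for *Hsp90b1* the 12 had -0.81, with 1 above it. On chromosome 15, which carries *Atf4* and *Creld2*, the medians of both clones lay between 0.43 and 0.46. Within 1 Mb of *Atf4*, which had 0.62 in uninduced clone 1, the 28 neighbours had a median of 0.53 there, with 9 above *Atf4*. In uninduced clone 2 *Atf4* had 1.10 and its neighbours 0.48, with 3 above it. In stimulated cells the neighbours had 0.28 in clone 1, with 23 above *Atf4*, and 0.33 in clone 2, with 7 above. *Trib3* lies 588 kb from *Foxs1* on chromosome 2. The 29 genes within 1 Mb of *Foxs1*, *Trib3* among them, had log2 fold changes against WT from -10.1 (*Zcchc3*) to 3.25 (*Dusp15*) in uninduced clone 1, with a median of 0.12, and from -10.1 (*Zcchc3*) to 4.03 (*Mylk2*) in uninduced clone 2, with a median of -0.06. The part of these chromosome differences in the members' values was not tested.

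Lists of other genes of these pathways, which were fixed by name and hold no member, gave the surroundings. In WT cells, where 6.25% of all genes rose and 13.6% fell, 5 of 18 other aminoacyl-tRNA synthetases rose. These were *Tars* (1.48 ± 0.053), *Mars* (1.43 ± 0.050), *Gars* (1.34 ± 0.050), *Cars* and *Iars*. The median over the list was 0.93 in WT, 0.26 in clone 1 and 0.23 in clone 2. In each clone 0 of 18 rose by edgeR or DESeq2, which is near the backgrounds of 5.95% in clone 1 and 6.46% in clone 2. At an unadjusted p under 0.05, 15 were higher in clone 1 and 12 in clone 2. The response was smaller than in WT by more than the threshold for *Cars* in clone 1 and *Iars* in clone 2. Of 15 tested genes of amino acid transport and metabolism, 4 rose and 2 fell in WT cells (backgrounds 6.25% and 13.6%). *Slc1a4*, a neutral amino acid transporter, rose in every genotype (2.92 ± 0.065 in WT, 2.01 ± 0.063 in clone 1 and 2.45 ± 0.063 in clone 2). *Slc1a5*, the glutamine transporter ASCT2, was higher in both clones than in WT, by 1.67 ± 0.079 and 2.36 ± 0.077 uninduced and 3.49 ± 0.080 and 3.82 ± 0.081 stimulated. *Slc7a11*, the cystine transporter, was at 4.77 ± 0.699 CPM in stimulated WT cells, 20.9 ± 1.52 CPM in stimulated clone 1 and 34.2 ± 3.97 CPM in stimulated clone 2 (SD, n = 3).

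Of 11 stress regulators and secreted factors, 5 rose in WT cells (background 6.25%). *Nupr1*, a stress-induced chromatin protein, rose in each genotype (1.51 ± 0.072, 1.77 ± 0.064 and 1.93 ± 0.060 in WT, clone 1 and clone 2). *Ddit4*, an inhibitor of mTORC1 that is also a glucocorticoid target, rose in clone 1 (2.04 ± 0.047) and clone 2 (1.87 ± 0.046) and had 0.26 ± 0.046 in WT, and the response differences of 1.78 ± 0.065 and 1.61 ± 0.064 passed the test. *Vldlr*, a lipoprotein receptor, was higher in uninduced clone 2 than in WT by 3.10 ± 0.16, and in uninduced clone 1 by 1.19. In stimulated cells it was higher in clone 2 by 3.13, and clone 1 had 0.92, under the threshold. *Vldlr* also rose in WT cells (1.24). Of 12 other ER folding and oxidation genes, 1 fell in WT cells (background 13.6%), the oxidase *Ero1lb* (-1.13 ± 0.17), and 1 rose in clone 2 (background 6.46%), its relative *Ero1l* (1.14 ± 0.065). *Txndc5*, a disulfide isomerase, was lower in stimulated clone 2 than in WT by a log2 fold change of -1.07 ± 0.044. Of 10 genes of ER entry and export, 0 were DEGs in any response by edgeR or DESeq2. Over all genes 6.25%, 5.95% and 6.46% rose in WT, clone 1 and clone 2, and 13.6%, 10.7% and 11.2% fell. Beside these shares, 0 of 10 says little about this list. At an unadjusted p under 0.05 there were 10 higher in WT, 10 in clone 1 and 6 in clone 2.

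Among the eIF2 kinases, phosphatase and ATF6-processing genes, *Creb3l1*, an ER-bound factor of the ATF6 type linked to collagen secretion, rose in all 3 genotypes (1.41 ± 0.078, 1.10 ± 0.076 and 1.37 ± 0.075 in WT, clone 1 and clone 2), and its relative *Creb3l2* was lower in both uninduced clones than in WT (-1.30 ± 0.078 and -1.0005 ± 0.077). The *Creb3l2* value of clone 2 stood at the fold threshold and was not recomputed with a library left out. Its uninduced WT libraries were at 285, 227 and 210 CPM. Of the cytosolic heat shock genes, *Hsph1*, a nucleotide exchange factor, rose in all 3 (2.55 ± 0.083, 2.23 ± 0.086 and 1.96 ± 0.084). *Hspb1*, a small heat shock protein, had 2.57 to 3.47 CPM in uninduced WT libraries and 0 to 0.207 CPM in those of the clones. The inducible *Hspa1a* was at 3.38 ± 0.406 CPM in uninduced WT cells against 0.659 ± 0.145 CPM in clone 1 and 0.0935 ± 0.0382 CPM in clone 2. These 2 were the only DEGs among the 10 listed in each uninduced clone (backgrounds for lower 8.73% and 9.56%). *Hspa1b* of the same list did not go with them. It fell in WT cells (background 13.6%) and was higher in stimulated clone 1 than in WT (background 9.42%). Of 7 mitochondrial chaperones and proteases, *Hspd1* rose in WT cells (1.04 ± 0.049), with 0.30 ± 0.049 in clone 1 and 0.16 ± 0.048 in clone 2, and *Hspa9* was higher in uninduced clone 2 than in WT by 1.01 ± 0.049, a call that was lost without uninduced WT replicate 2 (0.97) or uninduced clone 2 replicate 3 (0.99).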

How the data were processed

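Counts per gene were measured by poly(A) RNA sequencing in 18 libraries. Per the labels and the paper's methods, the authors mapped paired-end reads to mm10 (GRCm38) with HISAT2 and deposited raw counts, which are the only values used. No source used here gives the counting program, annotation release or strand setting, so antisense and overlapping genes share an unknown part of their counts. Overlaps came from GENCODE M21, whose positions matched all 41 members.

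Members and lists were chosen with earlier results of these data known. In R 4.3.3, edgeR 4.0.16 (filterByExpr with minimum count 10, TMM, robust glmQLFit, glmQLFTest) fitted 1 mean for each of the 6 groups over all 18 libraries, and 11 comparisons were tested. A gene was a DEG where its p, adjusted over all genes by the Benjamini-Hochberg method, was under 0.05 and its log2 fold change was beyond 1 either way. The paper names DESeq2, of which version 1.42.0 was run as an alternative. The other alternatives were DESeq2 size factors, no filter, fits of the compared groups only, a replicate block, no fold threshold, and each library left out. *Ddit3* has 2 identifiers, and the 1 with 0 counts throughout was set aside. No count column was left unmapped (0 columns). Libraries of 15576685 to 42005596 counts limit the precision for genes near 1 CPM, such as *Atf3*.

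Values per library were given for the usual readouts (*Hspa5*, *Dnajb9*, *Xbp1*, *Atf4*, *Ddit3*, *Trib3*, *Asns* and *Psat1*) and for up to 4 further DEGs a list, or 6 for chaperones and ATF4 targets, with the largest change and a mean of at least 1 CPM. From each other list up to 3 DEGs were named by the same measure, and other names in the text fall outside this rule and were added after their values were seen. Figures were drawn with Python 3.11.15 and matplotlib 3.10.9.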

Additional observations from a re-analysis of the deposited data

Results flagged for a closer look

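The response to TGF-β1 + DMII differed from that of WT cells, by a test of the difference itself (the interaction in edgeR, adjusted over all genes, and beyond 1 on the log2 scale), for 9 members in clone 1 and 5 in clone 2. Differences are clone minus WT on the log2 scale, with the SE, over 3 libraries a group.

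In clone 1 the difference was positive for *Dnajb9* (1.63 ± 0.11, edgeR adjusted p = 2.65e-13). It was negative for *Chac1* (-1.95 ± 0.15, edgeR adjusted p = 5.88e-12), *Phgdh* (-1.82 ± 0.087, edgeR adjusted p = 1.45e-16), *Shmt2* (-1.30 ± 0.082, edgeR adjusted p = 1.17e-13), *Aldh1l2* (-1.21 ± 0.11, edgeR adjusted p = 8.15e-10) and *Mthfd2* (-1.15 ± 0.14, edgeR adjusted p = 1.12e-07). Nearer to the fold threshold were *Psat1* (-1.10 ± 0.088, edgeR adjusted p = 2.39e-11), *Slc7a1* (-1.03 ± 0.10, edgeR adjusted p = 1.88e-09) and *Slc7a5* (-1.01 ± 0.077, edgeR adjusted p = 5.82e-12).

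In clone 2 all 5 were negative, namely *Chac1* (-1.72 ± 0.15, edgeR adjusted p = 7.09e-11), *Phgdh* (-1.69 ± 0.086, edgeR adjusted p = 9.58e-16), *Aldh1l2* (-1.34 ± 0.11, edgeR adjusted p = 5.07e-11), *Mthfd2* (-1.34 ± 0.13, edgeR adjusted p = 3.83e-09) and *Shmt2* (-1.11 ± 0.080, edgeR adjusted p = 2.50e-12). These 5 were also among the 8 negative ones of clone 1, and both clones were set against the same WT libraries.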

How the results depend on the processing

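Of 144 recomputed counts of member DEGs, 127 stayed within 1.5 times the reported count. Each named gene was recomputed only in the 1 comparison with its largest change among those searched. Of these 436 recomputed log2 fold changes, 434 kept their direction and side of the threshold. The other 2 dropped just under it (*Hspa9*, given in the report), and none reversed. Calls near the threshold in other comparisons were not recomputed one by one. Examples are *Slc3a2* in stimulated clone 2, *Creb3l2* in uninduced clone 2 and the response difference of *Slc7a5* in clone 1. All 55 list medians recomputed with DESeq2 size factors moved by less than 0.1 on the log2 scale. The 2 DEGs of uninduced clone 1 against WT became 1 with the DESeq2 Wald test and 1 with DESeq2 size factors, and ran from 1 to 4 with 1 library left out. Without the fold threshold the counts were 31 (WT response), 34 and 33 (responses of clones 1 and 2), 28 and 33 (clones 1 and 2 against WT, uninduced), 36 and 31 (the same, stimulated), 30 and 34 (clone 1 against clone 2, uninduced and stimulated), and 24 and 22 (response differences of clones 1 and 2), by the construction of that setting. Same-numbered libraries did not deviate together (45 pairs, r from -0.0412 to 0.0498, 0 over 0.1), so the numbers do not pair them. With replicate number as a block (replicate block), member DEGs numbered 10 in the WT response, 2 in uninduced clone 1 and 9 in uninduced clone 2, as without it. Depth limits *Atf3*, whose libraries held 0.182 to 4.38 CPM, and each genotype other than WT is 1 clone.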
